A study of Homo sapiens with 4 samples.

Results

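The suprabasal and mucosal differentiation keratins are KRT1, KRT2, KRT3, KRT4, KRT10, KRT13, KRT23, KRT78 and KRT80, 9 of the 19740 genes that could be named on these arrays. They were chosen as a gene family, and all probes whose transcript belonged to 1 of the 9 genes were taken, which gave 10 of 34127 gene probes: 1 probe for each of 8 genes and 2 for KRT23. Of these 10 probes, 9 could be tested and 8 were well above background on all 4 arrays. The study asked how depletion of KPNA4, an importin-α that carries cargo proteins into the nucleus, changed the RNA of Ca9-22 cells, a cell line established from a human gingival squamous cell carcinoma. RNA from 2 control and 2 KPNA4 knockdown cultures, taken 3 days after transfection, was measured with 1 array per culture. Both groups were grown in the same serum-containing medium, the controls are labeled as negative control cells, and the labels give siRNA as the silencing reagent whereas the study's figures name short hairpin RNAs. The series calls the 2 cultures of each condition biological replicates. Whether both knockdown cultures received the same silencing sequence is not given in the sources used here.

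Keratins are the intermediate filament proteins of epithelial cells, and a filament is built from pairs of 1 acidic type I and 1 basic type II keratin. Basal cells of stratified epithelia make KRT5 and KRT14, and cells that leave the basal layer switch to another pair that depends on the tissue: KRT1 with KRT10 in epidermis, joined by KRT2 in the upper layers, KRT4 with KRT13 in non-cornifying mucosa such as the lining of the mouth and esophagus, and KRT3 with KRT12 in cornea. KRT13, KRT10 and KRT23 are type I keratins of a gene cluster on chromosome 17. KRT1, KRT2, KRT3, KRT4, KRT78 and KRT80 are type II keratins of a cluster on chromosome 12.

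The sequences just upstream of KRT4, of its neighbor KRT3 and of KRT10 are shown because these 3 genes behaved differently on the same arrays: KRT4 rose 16.2-fold, KRT3 did not pass the test, and KRT10 was already bright in the controls and did not pass it either. RefSeq promoter windows of build GRCh38.p14 were held for 4 of the 9 genes (KRT2, KRT3, KRT4 and KRT10), all on the minus strand, and the 250 bases before the start site are printed 5′ to 3′. Capitals mark matches to the motifs searched on both strands, none of which overlapped another: TATAAA (the TATA box), TGANTCA (the AP-1 element), GGGCGG (the GC box), CACCC (a box read by Krüppel-like factors) and GCCNNNGGC (an AP-2 element).
KRT4, chr12:52814117-52814366: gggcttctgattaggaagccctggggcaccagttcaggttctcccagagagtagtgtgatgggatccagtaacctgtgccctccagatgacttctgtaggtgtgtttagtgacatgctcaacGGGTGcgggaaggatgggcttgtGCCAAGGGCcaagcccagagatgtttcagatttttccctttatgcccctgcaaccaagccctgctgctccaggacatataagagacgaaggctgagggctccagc
KRT3, chr12:52796118-52796367: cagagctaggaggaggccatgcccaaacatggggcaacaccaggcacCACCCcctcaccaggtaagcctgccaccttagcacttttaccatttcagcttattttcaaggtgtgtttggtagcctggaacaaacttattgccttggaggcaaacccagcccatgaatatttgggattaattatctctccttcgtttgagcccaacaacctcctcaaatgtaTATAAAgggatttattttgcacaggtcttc
KRT10, chr17:40822615-40822864: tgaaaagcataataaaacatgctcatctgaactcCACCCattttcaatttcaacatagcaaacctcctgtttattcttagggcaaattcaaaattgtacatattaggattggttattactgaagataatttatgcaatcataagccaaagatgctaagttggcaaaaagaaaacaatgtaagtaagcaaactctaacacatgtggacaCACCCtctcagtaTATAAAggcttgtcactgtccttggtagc
Counted from the start site, with -1 the base just before it, TATAAA began at -30 in KRT3 and at -29 in KRT10, and 11.6% of 34943 promoter windows of 300 bases held it. In the KRT4 window these letters were not found. KRT4 held GCCNNNGGC from -105, a motif present in 23.2% of windows, and the reverse complement of CACCC from -128, present in 59.8%. CACCC did not set KRT4 apart, since it also began at -60 in KRT2, at -203 in KRT3, and at -216 and -42 in KRT10. TGANTCA, found in 7.72% of all windows, and GGGCGG, found in 44.9%, were in none of the 4 windows of these keratins. The GC content of the window was 56.0% for KRT4, 47.0% for KRT3, 37.7% for KRT10 and 44.7% for KRT2, beside a median of 58.7% over all windows.

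KPNA4 itself checked the labels. On the log2 scale used throughout, the processed signal of a probe relative to the 75th percentile of its array, KPNA4 stood at 4.02 and 4.03 in the controls and at 2.36 and 2.05 in the knockdown. The groups did not overlap, and the log2 fold change, always knockdown minus control, was -1.82 (SE 0.12, limma adjusted p = 0.001758). The 75th percentile was 1381 to 1466 for control and 1938 to 2096 for knockdown arrays, and 70.2% to 71.0% of probes were well above background per array. All 4 arrays were on 1 slide, the controls at the first positions and the knockdowns at the last, so that position on the slide and group cannot be told apart. Of the squamous epithelial markers, 11 of 11 genes were well above background on every array. Of their 14 probes, 9 were called higher and 4 lower at a limma adjusted p under 0.05. Over all probes tested, 20.0% were called higher and 28.3% lower. The summed level of the squamous markers (in units of the 75th percentile) was 150.4 to 152.3 in control and 146.8 to 147.5 in knockdown cells. The same sum was 0.146 to 0.151 against 0.334 to 0.353 for 8 fibroblast markers, of which 3 were well above background on all arrays (COL1A1, COL1A2 and DCN) and COL3A1, PDGFRA and THY1 on none. It was 4.66 to 4.70 against 6.06 to 6.39 for the 5 leukocyte markers with a probe, with CD14, CD68 and PTPRC well above background on all arrays. For 5 endothelial markers it was 0.0928 to 0.0996 against 0.0668 to 0.0705. Of these, CDH5 and VWF were well above background on all arrays, and PECAM1, KDR and TEK on none. For 5 melanocyte markers the sum was 0.759 to 0.761 against 0.655 to 0.666. Of these, DCT, MITF, MLANA and PMEL were well above background on all arrays, and TYR on none. Probes called higher and lower numbered 3 and 1 for fibroblast, 1 and 3 for leukocyte, 0 and 2 for endothelial and 1 and 3 for melanocyte markers. The leukocyte sum thus rose although more of its probes were called lower than higher. The part of these marker shifts in the keratin values was not tested.

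After KPNA4 knockdown, 5 probes of 4 differentiation keratin genes rose: KRT13 and KRT4, the mucosal pair, KRT1, a suprabasal keratin of epidermis, and both probes of KRT23. No probe of these genes fell, and 4 probes of 4 genes (KRT3, KRT10, KRT78 and KRT80) did not pass the test. Over all 24198 probes tested, 20.0% were called higher and 28.3% lower at a limma adjusted p under 0.05. The median log2 fold change was 1.35 over the 9 keratin probes tested and -0.09 over all probes tested. KRT1 passed the filter on dim probes through the knockdown arrays alone and so had to differ, and without it 4 of 8 probes were called higher, with a median of 0.76. In RNA from whole cultures, a change in the number of cells that make a keratin and a change in its RNA per cell cannot be told apart.

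**Figure D1:**
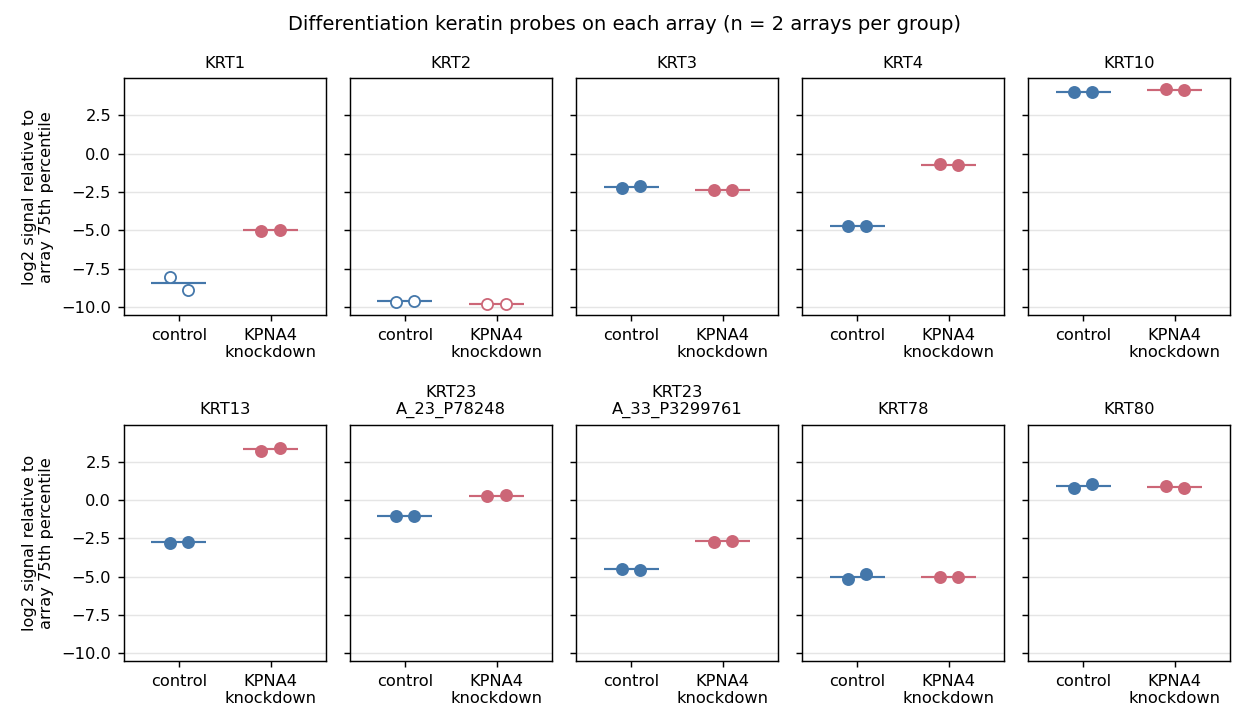
Level of each of the 10 differentiation keratin probes on each array, as log2 signal relative to the 75th percentile of that array (y axis), for the 2 control and the 2 KPNA4 knockdown arrays (points, with their mean as a line). Open points were not well above background. Heights may be compared within a panel only, since probes differ in brightness. KRT13, KRT4, KRT1 and both KRT23 probes lie higher in the knockdown than in the controls, whereas KRT78 and KRT80 overlap.

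KRT13, the type I keratin of the mucosal pair, showed the largest change of the 9 genes. Its level was -2.83 and -2.71 in the controls and 3.22 and 3.39 after knockdown, which in processed signal was 206 and 212 against 18010 and 21950. Both knockdown arrays lay far above both control arrays, with a gap of 0.12 between the controls and of 0.17 between the knockdowns. The log2 fold change was 6.07 (SE 0.09, 95% interval 5.82 to 6.33, 67.3-fold, limma adjusted p = 0.000229). Among the 22942 probes well above background on all 4 arrays, this was the 6th largest rise.

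KRT4, the type II partner of KRT13, rose as well, by less. It stood at -4.73 in both controls and at -0.70 and -0.73 after knockdown, or 55.1 and 52.1 against 1193 and 1265 in processed signal. The arrays of each group were nearly equal and the groups did not overlap. The log2 fold change was 4.02 (SE 0.06, 95% interval 3.86 to 4.17, 16.2-fold, limma adjusted p = 0.0002001), the 23rd largest rise among probes well above background on all arrays. The interval of KRT4 lay below that of KRT13, and the levels of the 2 probes cannot be set against each other.

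The 3 genes whose pattern over the 4 arrays was closest to that of KRT13, by the distance between log2 values centered on each probe's mean among 18732 probes, were VTCN1, a B7 family immune checkpoint ligand (distance 0.28), SPRR3, a small proline-rich protein of esophageal and oral epithelium (0.36), and AKR1B10, an aldo-keto reductase (0.47). Their log2 fold changes were 6.24, 6.42 and 5.62, each called higher. Closest to KRT4 were KLK9, a kallikrein-related peptidase (distance 0.11, log2 fold change 3.91), PRXL2A, a peroxiredoxin-like protein (0.15 and 4.16), and BBOX1, an enzyme of carnitine synthesis (0.19 and 3.90). With 2 groups of 2 arrays, this distance reflects mainly the size of the difference between the groups.

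KRT1, the type II keratin that replaces KRT5 in suprabasal epidermis, went from background to a measurable level. Its probe was at -8.03 and -8.88 in the controls, not well above background, and at -5.06 and -4.97 after knockdown, where it was well above. The processed signals were 5.61 and 2.94 against 58.1 and 66.9, so that the control values carry no order. Measured from the lowest control signal that counts as well above background, KRT1 was at least 5.15-fold higher after knockdown (limma adjusted p = 0.003081), with fitted group means of -8.45 and -5.01.

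KRT10, the type I partner of KRT1 and KRT2, was bright in both groups. The controls were at 4.00 and 4.03 and the knockdown cultures at 4.21 and 4.16. The groups did not overlap, but the log2 fold change of 0.17 (SE 0.06, 95% interval 0.01 to 0.33, limma adjusted p = 0.07953) did not pass the threshold, and its interval left out changes of the size seen for KRT1, KRT4 and KRT13. It passed under quantile normalization, with a log2 fold change of 0.30. KRT2, which joins KRT10 in the upper epidermis, was not well above background on any array, at -9.68 and -9.61 in control and -9.79 and -9.83 in knockdown cells over 10 spots, and was not tested. No fold is given for KRT2, since both groups were at background.

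KRT23, a type I keratin first known from cells treated with histone deacetylase inhibitors, was measured by 2 probes that rose together. Probe A_23_P78248 stood at -1.06 in both controls and at 0.28 and 0.30 after knockdown, a log2 fold change of 1.35 (SE 0.06, 95% interval 1.19 to 1.51, limma adjusted p = 0.0007615). Probe A_33_P3299761 stood at -4.48 and -4.54 against -2.74 and -2.66, a log2 fold change of 1.81 (SE 0.07, 95% interval 1.63 to 1.99, limma adjusted p = 0.0005947). On neither probe did the groups overlap. The 2 intervals did not meet, so the direction was shared by the probes but the fitted size was not. The order of the sizes depended on the background correction. Under normexp without spots in bright surroundings, A_23_P78248 was at 1.30 and A_33_P3299761 at 1.06.

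KRT3, the corneal type II keratin, was present in both groups and did not pass the test. The controls were at -2.23 and -2.14 and the knockdown cultures at -2.39 and -2.40. The knockdown arrays lay below the controls without overlap, with a log2 fold change of -0.21 (SE 0.07, 95% interval -0.39 to -0.04, limma adjusted p = 0.05723). The sign of this small difference depended on the scaling: with no scaling between the arrays it was 0.29, beside a median over all probes of 0.41, whereas quantile normalization and median scaling both gave -0.24 and called it lower. KRT12, the type I partner of KRT3, was not well above background on any array.

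KRT78 and KRT80, type II keratins of stratified epithelia, gave values that overlapped between the groups. KRT78 stood at -5.17 and -4.81 in the controls and at -5.04 and -4.99 after knockdown, with a log2 fold change of -0.03 (95% interval -0.40 to 0.35, limma adjusted p = 0.8908). KRT80 stood at 0.78 and 1.03 against 0.94 and 0.81, with a log2 fold change of -0.03 (95% interval -0.34 to 0.28, limma adjusted p = 0.8323). For both genes the knockdown arrays lay between the control arrays. With no scaling between the arrays the values were 0.48 and 0.47, close to the median of 0.41 over all probes under that setting.

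**Figure D2:**
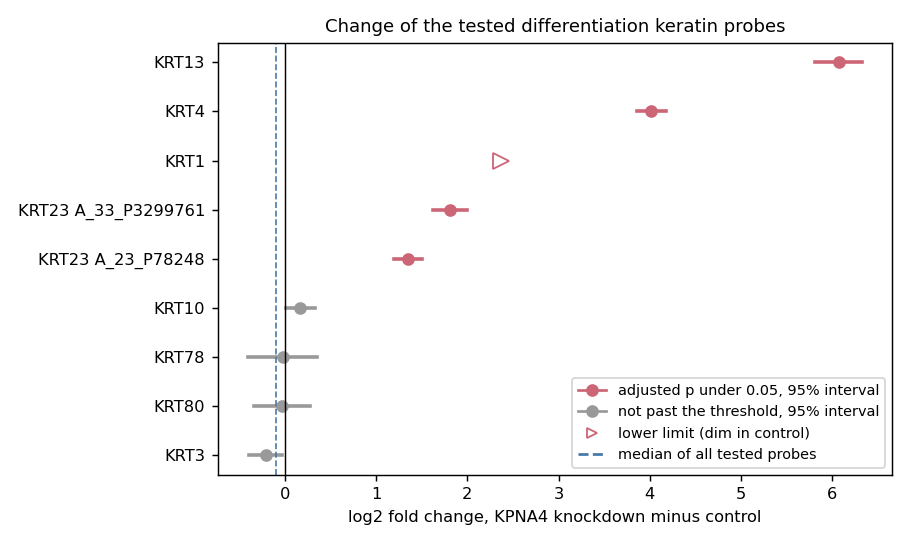
Log2 fold change (x axis, knockdown minus control, 2 arrays per group) of the 9 differentiation keratin probes tested, with its 95% interval as a bar. The triangle is the lower limit for KRT1, which was dim in the controls, and the dashed line is the median of all tested probes (-0.09). KRT13 and KRT4 lie furthest to the right, at 6.07 and 4.02, and the 4 gray probes lie between -0.21 and 0.17.

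**Figure D3:**
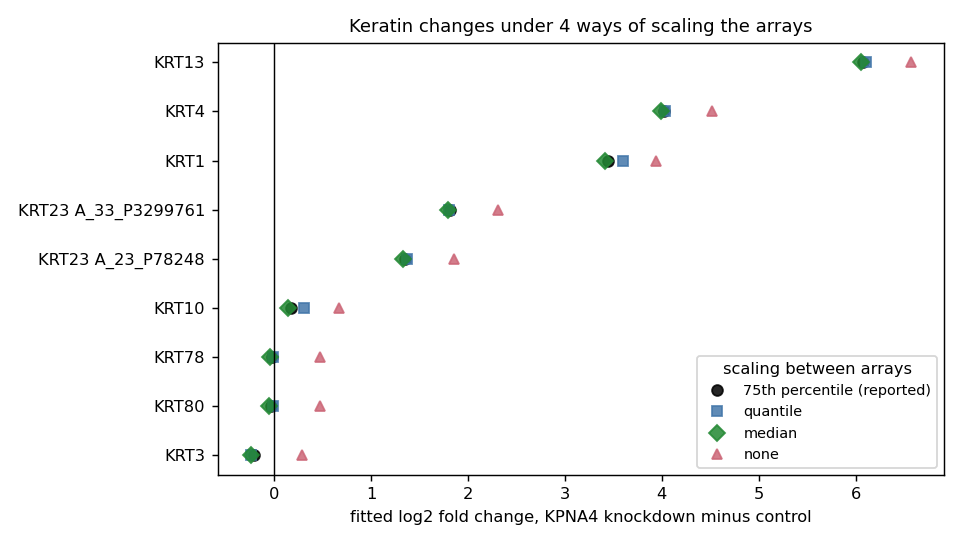
Fitted log2 fold change (x axis, knockdown minus control) of the same 9 probes under 4 ways of scaling the arrays. KRT13, KRT4, KRT1 and both KRT23 probes stay on the right of 0 under each, whereas KRT3, KRT78 and KRT80 change side when the arrays are not scaled. KRT1 is drawn at its fitted value, which is no limit.

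Along the keratin cluster on chromosome 12, KRT6B, KRT6C, KRT6A and KRT5 directly followed each other and were all called higher. Outside this run, genes that changed and genes that did not were interleaved. Of 21 keratin probes tested on chromosome 12, 7 were called higher and 5 lower, beside 20.0% and 28.3% of all probes tested. Among the higher, KRT1 and KRT6C passed the filter on dim probes through the knockdown arrays alone and so had to differ. KRT3 and KRT4 are direct neighbors: KRT4 rose, KRT3 did not pass the test (-0.21), and KRT76, a keratin of the palate and gingiva on the other side of KRT3, fell by 0.33 on the log2 scale (limma adjusted p = 0.01527), though with no scaling between the arrays it stood at 0.17. KRT79, between KRT4 and KRT78, was not well above background on any array. On chromosome 17, 11 of 17 keratin probes tested were called higher and 1 lower. KRT13 is the first of a run of 7 keratin genes called higher in their order along the chromosome, followed by KRT15 (2.78), KRT19 (0.54), KRT9 (2.45), KRT14 (1.39), KRT16 (2.04) and KRT17 (1.38). KRT10 and KRT23 lie outside this run, with the keratins KRT12 and KRT20 between them, both at background on every array.

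**Figure D4:**
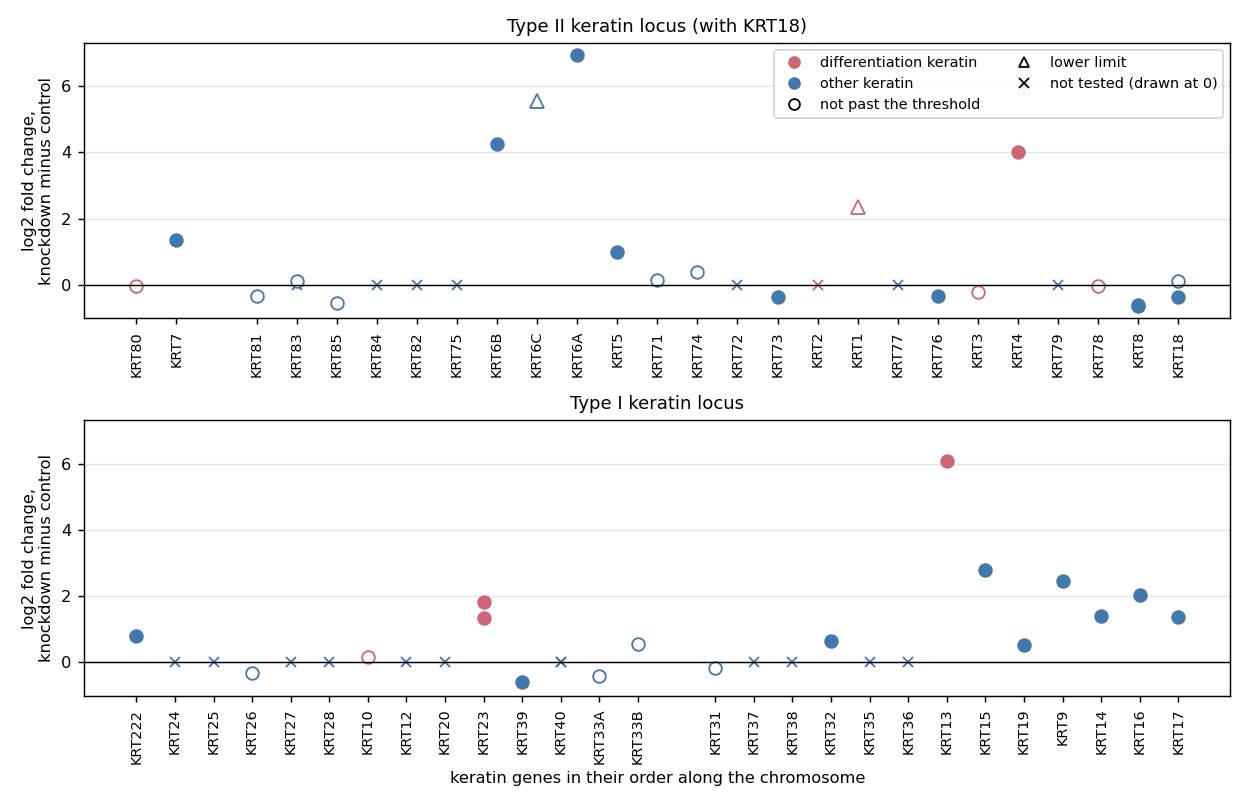
Log2 fold change (y axis, knockdown minus control) of each keratin probe, with the genes in their order along the type II locus on chromosome 12 (upper panel) and the type I locus on chromosome 17 (lower panel), not to distance. Filled points passed the test, open points did not, triangles are lower limits for probes dim in the controls, and crosses mark probes that were not tested. KRT4 stands out from its neighbor KRT3 and, beyond the untested KRT79, from KRT78. KRT13 opens a run of genes that all lie above 0.

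All 8 basal and hyperproliferation keratins tested, which serve basal cells and wounded or activated epidermis, were called higher, with a median log2 fold change of 2.41. Over all probes tested, 20.0% were called higher and 28.3% lower. KRT6C passed the filter on dim probes through the knockdown arrays alone and so had to differ, and without it 7 of 7 were called higher, with a median of 2.04. KRT6A led them with 6.94 (limma adjusted p = 0.0001829), from -5.44 and -5.39 in the controls to 1.51 and 1.53 after knockdown. KRT6B followed with 4.25, and KRT6C, at background in the controls, was at least 47.0-fold higher. The KRT6 genes are nearly identical, and probes for them may share signal. The basal pair KRT5 and KRT14 rose by 1.00 and 1.39 on the arrays where KRT4 and KRT13 rose.

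Of 6 probes of simple epithelial keratins, which line single-layered epithelia, 2 were called higher and 3 lower, with a median of -0.12. The sign of this median depended on the setting: it was 0.12 under quantile normalization, 0.38 with no scaling and 0.0060 without control 1, and without KPNA4 knockdown 2 only 1 probe was called lower. KRT7 rose by 1.34 and KRT19 by 0.54, whereas KRT8 fell by 0.64 at 1 probe and by 0.62 at the other, calls lost with no scaling, where the values were -0.13 and -0.12. Of 15 probes of other epithelial, root sheath and hair keratins, 3 were called higher and 3 lower. That was 20% each, beside 20.0% higher and 28.3% lower over all probes tested. The median of the 15 probes was -0.18. With no scaling 8 were higher and 0 lower, with a median of 0.32, and normexp without spots in bright surroundings gave 3 and 7. The lower calls rested on few arrays, with 1 without control 2 and 0 without KPNA4 knockdown 2, where the median was -0.0078. KRT9, the keratin of palm and sole epidermis that pairs with KRT1, rose by 2.45 (limma adjusted p = 0.0006009), from -3.08 and -2.88 in the controls to -0.52 and -0.54 after knockdown. KRT222 rose by 0.81 and KRT32, a hair keratin, by 0.64.

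Transcription factors known to act in keratinocyte differentiation were measured by 47 probes, of which 24 were called higher and 1 lower. That was 51.1% and 2.13%, beside 20.0% higher and 28.3% lower over all probes tested. The median log2 fold change of the 47 probes was 0.41. Among the higher, probe A_23_P350451 of PRDM1 passed the filter on dim probes through the knockdown arrays alone and so had to differ. With no scaling 43 were higher and 1 lower (median 0.91), with normexp leaving out bright surroundings 22 and 7 (median 0.13), and without either knockdown array 20 and 2. CEBPA, which favors exit from the basal layer, rose by 2.26 (limma adjusted p = 0.0003861), KLF5, a Krüppel-like factor, by 1.88, and HOPX, a homeodomain-only protein, by 1.83 at 1 probe and stood at -0.17 at another, which did not pass. VDR, the vitamin D receptor, was the 1 that fell, by 0.89. KLF4 and TP63 did not pass the test, with log2 fold changes of -0.10 and -0.08.

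Genes that anchor or cross-link keratin filaments were measured by 30 probes, of which 15 were called higher and 3 lower. That was 50% and 10%, beside 20.0% higher and 28.3% lower over all probes tested. The median was 0.60, or 0.43 with probes dim in 1 group set to their limits. DSC3 among the higher and FLG among the lower passed the filter on dim probes through 1 group alone and so had to differ. With no scaling 24 were higher and 1 lower (median 1.098), with normexp leaving out bright surroundings 15 and 8 (median 0.20), and without KPNA4 knockdown 1 or 2, 14 were higher and 2 or 1 lower. With no filter on dim probes the median was 0.22. SCEL, which encodes the envelope precursor sciellin, rose by 5.18 (limma adjusted p = 0.0003386). PKP1, a desmosomal plaque protein, rose by 1.77 and 1.67 at its 2 probes. DSC3, a desmosomal cadherin at background in the controls, was at least 2.04-fold higher. FLG, which encodes the filaggrin that bundles keratin filaments, was called lower and was at least 1.62-fold lower.

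Non-keratin genes of mucosal stratified epithelium, the tissue of KRT4 and KRT13, were measured by 32 probes. Of these, 15 (46.9%) were called higher and 6 (18.8%) lower, beside 20.0% and 28.3% of all probes tested. The median of the 32 probes was 0.24. TMPRSS11E among the higher and CYP2C18 among the lower passed the filter on dim probes through 1 group alone and so had to differ. The median was -0.09 with no filter on dim probes and -0.02 with normexp leaving out bright surroundings, where 13 were higher and 13 lower. Lower calls numbered 3 without control 1, 2 without control 2 and 3 without KPNA4 knockdown 2. SPRR3 rose by 6.42 (limma adjusted p = 0.0002831), TMPRSS11E, a membrane serine protease, was at least 2.92-fold higher, and IL1RN, the interleukin-1 receptor antagonist, rose by 3.14 at 1 probe and stood at 0.11 at the other, which did not pass. CRNN, which encodes cornulin and is abundant where KRT4 and KRT13 are made, fell by 0.42 and CSTA, a cysteine protease inhibitor, by 0.63. Both calls were lost with no scaling, at 0.081 and -0.12, and for CRNN also under quantile normalization, at -0.29. The CRNN probe stood at -7.09 and -6.91 in the controls, well above background on both. After knockdown it was at -7.33 and -7.51, well above background on only 1 array. MAL, a lipid raft protein of the same tissue, stood at -0.19 and did not pass. With no scaling, 19 of these probes were called higher and 1 lower, with a median of 0.74.

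**Figure D5:**
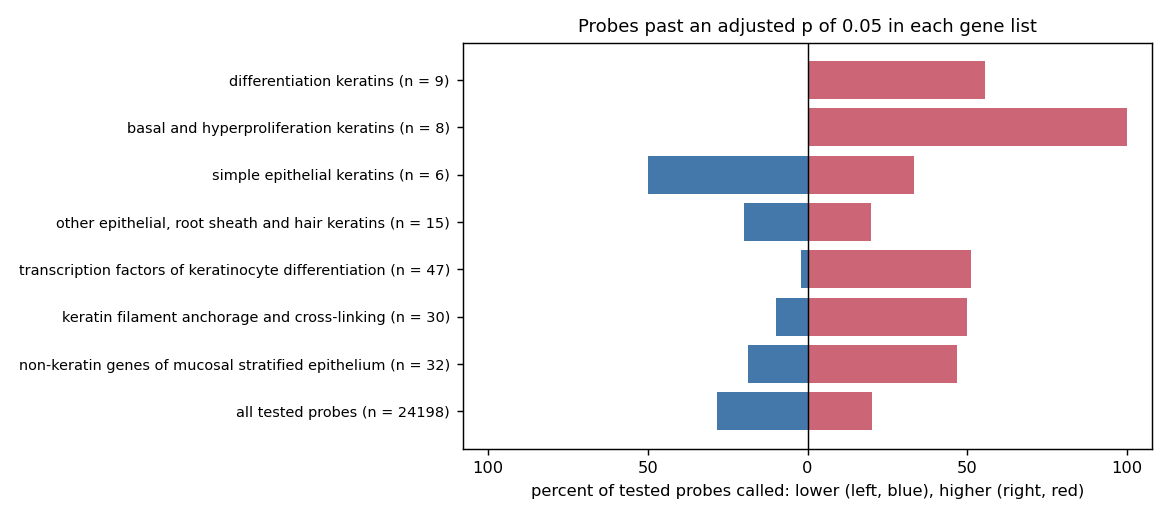
Percent of the tested probes of each gene list called lower (left of 0) or higher (right of 0) in the KPNA4 knockdown at a limma adjusted p under 0.05, with the number of probes tested beside each name. The differentiation keratins, with 5 of 9 higher and 0 lower, and the basal and hyperproliferation keratins, with 8 of 8 higher, each include 1 probe dim in the controls. Called probes dim in 1 group are also in the transcription factor, filament anchorage and mucosal lists. Over all probes, 20.0% were called higher and 28.3% lower.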

How the data were processed

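Feature Extraction 11.0.1.1 output of 4 1-color arrays was used. The authors deposited processed signal intensity, corrected for background and detrended in space but not scaled between arrays, and a table of the same arrays whose values were found to be a ratio of that signal to each array's 75th percentile. Control spots and the 333 to 355 gene spots per array with an outlier flag (of 43118) were dropped, log2 intensities were averaged per probe, and values were set relative to the 75th percentile of their array. Saturation was flagged at 0 gene spots. Probes were named through transcript accessions in RefSeq (GRCh38.p14), which matched 25771 of 34127. The grid refers to another build, so the table gave names and gene order only.

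A probe entered the comparison if 1 group or both had it well above background on each of its arrays, which left 24198. These were compared in R 4.3.3 by limma 3.58.1 (lmFit, then eBayes, 4 arrays, no covariate) with Benjamini-Hochberg adjustment over all of them, with a threshold of 0.05. Tables and figures were made in Python 3.11.15. A probe dim on both arrays of a group was given a limit: the bright group's mean against, per array, the higher of its own signal and the lowest signal well above background. The procedure was tested on simulated data. Arrays have no read depth, and 2 arrays per group limit the precision.

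The members and the 6 gene lists were chosen with earlier results of these data known, so counts over them are descriptions. Named are all members and their partners, KPNA4, the 3 largest called changes per list and the 3 nearest patterns for KRT13 and KRT4. Neighbors in the clusters, KRT5 and KRT14, further probes of a named gene, VDR, KLF4, TP63, PRDM1, FLG, CRNN, CSTA, CYP2C18 and MAL were chosen after their values were seen. The 16 alternatives were other scalings, normexp, the deposited table, other filters, 1 probe per gene, limma with trend and robust estimation, the replicate block and each array left out. Normexp used the deposited median and local background intensity. Normexp leaving out spots in bright surroundings was an addition made after the data were seen.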

Additional observations from a re-analysis of the deposited data

How the results depend on the processing

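KRT13, KRT4, KRT1 and both KRT23 probes were higher under every alternative that held them and lost the call only under plain normexp, where no probe was called in either direction and KPNA4 was -1.94 (adjusted p = 0.651). On KPNA4 knockdown 2, 8 probes lay in bright local background, and none on the other arrays. Without them, normexp called 4440 probes higher and 10919 lower (28.9% of calls higher, against 41.4%). It called 6 keratin probes higher (KRT10 added) and 2 lower (KRT3 and KRT78). The fitted value of KRT1 was then 0.63, that of KRT4 3.03 and that of KRT13 5.71. In the main setting KRT4 was at 4.02 and KRT13 at 6.07, and under plain normexp they were at 3.11 and 5.51. With no scaling, 14112 probes were higher and 1258 lower (91.8% of calls higher), and all 9 keratin probes were called higher, with KRT3 at 0.29, KRT78 at 0.48 and KRT80 at 0.47. Quantile normalization and median scaling each called 1 keratin probe lower, KRT3. KRT10 was called higher under quantile normalization, no scaling, limma's trend and robust options, and normexp without spots in bright surroundings. Under plain normexp KRT3 was 0.26, KRT10 -0.054 and KRT78 1.00, and KRT80 was 0.012 under normexp without spots in bright surroundings. The cause of these shifts was not tested.

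Leaving out 1 array at a time, with the lone array assumed to vary like the other group, gave 2640 to 4422 probes higher and 3048 to 5653 lower, and 5 keratin probes higher and 0 lower each time. Without KPNA4 knockdown 1 the counts were 2705 and 3754, and without KPNA4 knockdown 2 they were 2640 and 3048. KRT78 then ranged from -0.20 to 0.15 and KRT80 from -0.16 to 0.093. Same-numbered arrays did not deviate together over the probes (r = -0.04), a value that cannot show whether their cultures were paired. With the number as a replicate block, 3964 probes were higher and 5429 lower, with 5 keratin probes higher and 0 lower. Dim probes such as KRT1, KRT2 and KRT12 are limited by their signal over background.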
